A study of Mus musculus with 4 samples.

Results

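Melanosomes, the pigment granules of melanocytes, are carried to the cell edge by a small set of proteins, and the messenger RNAs of 8 of them were followed here, Rab27a, Rab27b, Mlph, Myo5a, Rab32, Rab38, Rab17 and Sytl2. The members were the exons of these 8 genes, of 22835 genes with values, found by matching exon identifiers to the GENCODE M21 annotation of mm10. Of 181 annotated exon positions of the 8 genes, 106 had values. RNA-seq had been performed on wild-type MEFs at passage 3 (WT MEF), on Mitf knock-in MEFs without Dox (Dox (-)) and on Mitf knock-in MEFs given Dox for 6 days (Dox (+)), both at passage 5, and on primary mouse melanocytes (PMel), which were not analysed here. MEFs are mouse embryonic fibroblasts. Both knock-in samples carried the M2RtTa activator at ROSA26 on both alleles and a tetO-Mitf cassette at the collagen locus on 1 allele, so that Dox (doxycycline) switched on Mitf, the master transcription factor of melanocytes. Wild-type MEFs served as the untreated control without the cassette. Their values were identified by the column name alone, and differ from MEF values given with the paper, so WT MEF here means the library of that name. The knock-in MEFs were derived from chimera embryos made with 1 correctly targeted embryonic stem cell clone. Such embryos also hold host cells, and the cells carried mCherry and puromycin resistance by which the transgenic cells can be purified. Each condition had 1 library, so no difference between conditions had a replicate check and no p-values were computed.

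In melanocytes, the GTPase Rab27a sits on the melanosome membrane and binds melanophilin (Mlph), which in turn binds the actin motor myosin Va (Myo5a). This complex captures melanosomes on actin at the cell edge, and mice lacking any of its parts have diluted coats. Rab27b is a close relative of Rab27a, Sytl2 is a Rab27 effector that anchors melanosomes at the plasma membrane, Rab32 and Rab38 deliver pigment enzymes to the maturing melanosome, and Rab17 acts in the release of melanosomes from melanocytes. MITF binds E-box sequences in the promoters of pigment genes.

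Values were exon RPKM, that is, read counts divided by the length of the exon and by the sequencing depth of each library, and the level of a gene was the RPKM of its highest exon. Multiplied by exon length, low RPKM values returned whole reads at a depth of 45000000 reads in WT MEF and Dox (-) and 44000000 reads in Dox (+), for 97.2 to 97.4% of values within 0.05 of a read. A gene was called higher or lower where it exceeded 10 RPKM in at least 1 of the 2 libraries compared and the ratio of the levels exceeded 4. Mitf itself stood at 1.52 RPKM in WT MEF, 30.8 RPKM in Dox (-) and 1544 RPKM in Dox (+). The summed level of 10 melanocyte markers was 5.04 RPKM in WT MEF, 15.0 RPKM in Dox (-) and 274.6 RPKM in Dox (+), where 4 of the 10 exceeded 10 RPKM, Dct stood at 0.900 RPKM and Oca2 was listed at 0. Most of the sum in Dox (+) came from Mlana, at 133.1 RPKM, and Tyrp1, at 109.6 RPKM. Of the 10 markers, 8 were highest in Dox (+), and Sox10 was highest in Dox (-), at 6.69 RPKM against 1.66 RPKM in Dox (+). The summed level of 9 fibroblast markers was 30496 RPKM in WT MEF, 59548 RPKM in Dox (-) and 19886 RPKM in Dox (+). The Dox (-) library stood apart in macrophage markers, all 10 of which were highest there, with a summed level of 15669 RPKM against 54.5 RPKM in WT MEF and 557.5 RPKM in Dox (+). The part of these cells in the differences from Dox (-) was not tested, and more cells of a type cannot be told apart from more RNA per cell. Each comparison of Dox (+) with Dox (-) is therefore set beside WT MEF, where the macrophage markers were low. The comparisons share libraries and are not independent of each other.

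The promoter windows of Rab27a and Mlph are shown because these genes stood far above both other libraries in Dox (+). RefSeq windows on GRCm38.p6, running from 250 bases before to 50 bases after the start, were given for 5 of the 8 genes, Rab27a (with 2 starts), Mlph, Myo5a, Rab32 and Rab17. The 250 bases before the start are printed 5′ to 3′ on the plus strand, with the E-box CACGTG in capitals. The positions are chr9:73044560-73044809 for the first start of Rab27a, chr9:73063898-73064147 for its second start and chr1:90914850-90915099 for Mlph.
Rab27a, first start: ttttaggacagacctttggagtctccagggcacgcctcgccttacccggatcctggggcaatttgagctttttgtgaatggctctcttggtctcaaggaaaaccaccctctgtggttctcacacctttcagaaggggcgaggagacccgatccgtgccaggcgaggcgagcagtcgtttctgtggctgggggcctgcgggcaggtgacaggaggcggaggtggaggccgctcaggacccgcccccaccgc
Rab27a, second start: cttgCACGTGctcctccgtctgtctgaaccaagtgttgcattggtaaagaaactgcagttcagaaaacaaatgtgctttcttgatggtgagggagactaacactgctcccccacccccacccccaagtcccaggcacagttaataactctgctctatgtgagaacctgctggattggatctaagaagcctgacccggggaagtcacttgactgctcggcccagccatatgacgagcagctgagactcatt
Mlph: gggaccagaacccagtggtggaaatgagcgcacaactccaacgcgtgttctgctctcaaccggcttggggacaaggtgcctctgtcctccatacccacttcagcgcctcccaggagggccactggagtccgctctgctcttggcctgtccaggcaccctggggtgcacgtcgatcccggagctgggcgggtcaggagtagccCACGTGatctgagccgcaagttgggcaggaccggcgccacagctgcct
The letters CACGTG were found in the Mlph window, beginning 48 bases before the start, and in the window of the second Rab27a start, beginning 246 bases before it. They were found in 7.15% of all 32851 windows. The windows of the first Rab27a start, Myo5a, Rab32 and Rab17 did not hold them. CATGTG, searched on both strands, was in 14.2% of all windows and in none of the 6 windows of these genes, and so neither was TCATGTG, which contains it and was in 3.77% of all windows. A match is a description of the letters and not a binding site.

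Rab27a, the GTPase that marks melanosomes for capture, was expressed far more in Dox (+) than in either other library. The gene lies on the plus strand of chromosome 9, positions 73044854 to 73097629. Its level was 6.45 RPKM in WT MEF, 2.33 RPKM in Dox (-) and 64.2 RPKM in Dox (+). The Dox (+) level was 27.6-fold that of Dox (-), a log2 difference of 4.29, and 9.95-fold that of WT MEF, a log2 difference of 3.13. The levels of Dox (-) and WT MEF, both under 10 RPKM, were not compared by the 4-fold rule. The exon that set the Dox (+) level, 86 bases long at 73082402 to 73082487, carried 12 reads in WT MEF, 8 reads in Dox (-) and 243 reads in Dox (+). On this exon Dox (+) was 31.1-fold above Dox (-), with an exact binomial 95% interval of 15.5 to 72.8, and 20.7-fold above WT MEF, with an interval of 11.6 to 40.6. These intervals cover counting error only, not the spread between cultures.

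The difference ran through the whole coding part of Rab27a. On all 9 listed exon positions the ratio of Dox (+) to Dox (-) exceeded 4, as it did on 3.31% of all 188238 exon positions with more than 3 reads in at least 1 of the 2 libraries. The positions before the coding part, with 1 read each in Dox (-), passed this read filter through Dox (+) alone. The first exon was counted in 2 versions. On the 6 positions with more than 3 reads in both libraries, 2 of which are versions of the last exon, the ratios lay between 19.3 and 31.1 with a median of 23.4. Against WT MEF, 6 of the 9 positions exceeded that ratio, as did 14.4% of all exon positions.

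The first 2 exons of Rab27a, which lie before the coding part, carried few reads even in Dox (+). The first exon had 3 reads in WT MEF, 1 read in Dox (-) and 7 reads in Dox (+), and the second had 3, 1 and 4 reads. The third exon, at 73075393 to 73075567, had 17 reads in WT MEF, 14 reads in Dox (-) and 388 reads in Dox (+). The reads added in Dox (+) thus lay from the third exon on. The second RefSeq start, at 73064148, lies between the second exon and the third exon, 11245 bases before the latter, and no listed exon covers it, so its use could not be measured. In Dox (+) the first exon of Rab27a stood at 2.0% of the median RPKM of its internal exons. The same share was 2.92% in Myo5a and 6.57% in Rab27b, but 36.0% in Mlph, 29.4% in Rab32, 63.0% in Rab38 and 58.9% in Sytl2. In Rab27b the second exon was also low, with 3 reads in WT MEF, 6 reads in Dox (-) and 2 reads in Dox (+). The second exon of Rab27a overlaps a pseudogene, and the library kit does not mark strand, so its reads cannot be assigned to either.

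**Figure D1:**
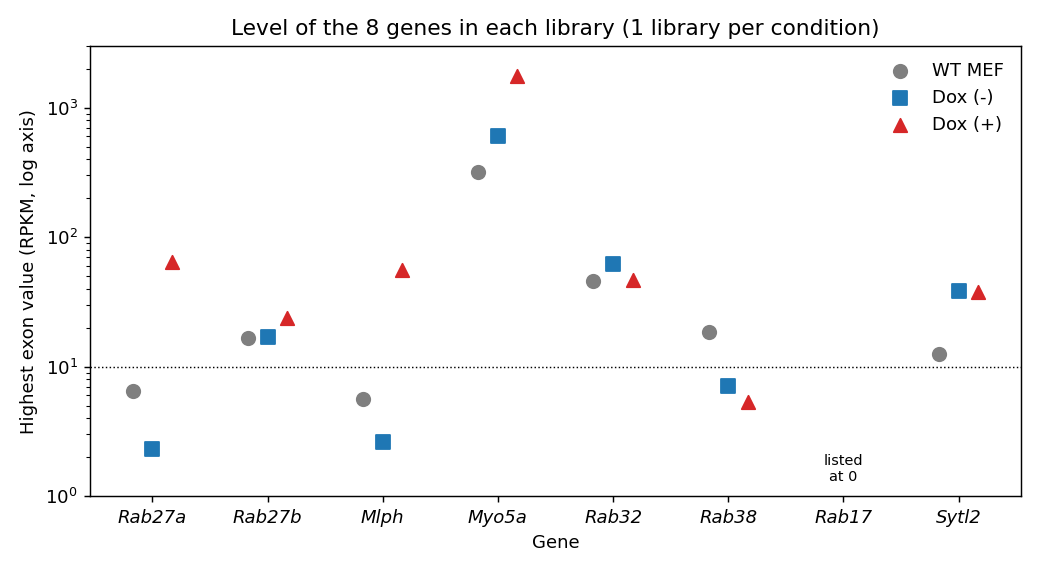
Level of each of the 8 genes, as the RPKM of its highest exon on a log axis, in WT MEF (grey circles), Dox (-) (blue squares) and Dox (+) (red triangles), 1 library each, with a dotted line at 10 RPKM. Rab27a and Mlph stand below 10 RPKM in WT MEF and Dox (-) and at 64.2 and 55.8 RPKM in Dox (+), Myo5a climbs over the 3 libraries, and Rab17 was listed at 0.

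Mlph, the linker between Rab27a and the motor, followed the pattern of Rab27a. It lies on the plus strand of chromosome 1, positions 90915085 to 90951142. Its level was 5.66 RPKM in WT MEF, 2.63 RPKM in Dox (-) and 55.8 RPKM in Dox (+). The Dox (+) level was 21.2-fold that of Dox (-), a log2 difference of 3.97, and 9.86-fold that of WT MEF, a log2 difference of 3.09. WT MEF and Dox (-) were both low. The exon that set the level, 55 bases long at 90943695 to 90943749, carried 14 reads in WT MEF, 1 read in Dox (-) and 135 reads in Dox (+). Its ratio of Dox (+) to WT MEF was 9.86, with an exact binomial 95% interval of 5.68 to 18.5, while the single read in Dox (-) gave a ratio of 138 with an interval of 24.4 to 5493.

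Every listed exon of Mlph was higher in Dox (+). All 18 positions were more than 4-fold above Dox (-), as were 3.31% of all exon positions. All 18 were more than 4-fold above WT MEF, as were 14.4% of all exon positions. Positions with 3 reads or fewer in Dox (-) or WT MEF passed the read filter of that comparison through Dox (+) alone. On the 12 positions with more than 3 reads in both, the ratio to Dox (-) had a median of 17.3 and lay between 10.9 and 42.4. On the 13 such positions for WT MEF, the ratio had a median of 19.4 and lay between 9.86 and 58.6. The first exon, which the printed window adjoins, had 3 reads in WT MEF, 4 reads in Dox (-) and 77 reads in Dox (+). Dox (-) and WT MEF had a median ratio of 1.00 on the 9 positions with more than 3 reads in both.

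Myo5a, the actin motor of the complex, was already abundant in fibroblasts and was higher again with Dox. It lies on the plus strand of chromosome 9, positions 75071015 to 75223688. Its level was 321 RPKM in WT MEF, 609.9 RPKM in Dox (-) and 1763 RPKM in Dox (+). These levels were set by an exon of 9 bases at 75187522 to 75187530, GATGACAAG, which carried 130 reads in WT MEF, 247 reads in Dox (-) and 698 reads in Dox (+). Over exons of at least 100 bases the level was 72.5 RPKM in WT MEF, 144.6 RPKM in Dox (-) and 413.5 RPKM in Dox (+), so the scale of the level, but little of the ratios, rested on the short exon. By the highest exon, Dox (+) was 2.89-fold above Dox (-), with an exact binomial 95% interval of 2.50 to 3.36, which did not pass the 4-fold rule. It was 5.49-fold above WT MEF, with an interval of 4.55 to 6.67, which did. Dox (-) was 1.90-fold above WT MEF, with an interval of 1.53 to 2.37.

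The order WT MEF, Dox (-), Dox (+) held on every one of the 49 listed exon positions of Myo5a. The ratio of Dox (+) to Dox (-) had a median of 2.86 and lay between 1.81 and 3.27. The ratio of Dox (+) to WT MEF had a median of 6.77, and 44 of the 49 positions exceeded 4-fold, as did 14.4% of all exon positions. The ratio of Dox (-) to WT MEF had a median of 2.37, and 1 position exceeded 4-fold, as did 16.3% of all exon positions, while 2.31% were lower by more than 4-fold.

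Along Myo5a the levels stepped up at the exon that starts at 75176518, a boundary chosen after the values were seen. In WT MEF the 21 internal exons before it had a median of 28.7 RPKM and the 18 internal exons from it on had 67.4 RPKM, 2.34-fold higher. In Dox (-) the medians were 83.2 and 126.0 RPKM, 1.51-fold apart. In Dox (+) they were 252.2 and 334.5 RPKM, 1.33-fold apart. The step was thus largest in WT MEF, and the median ratio of Dox (+) to WT MEF was 9.37 before the boundary and 5.57 from it on. Between Dox (+) and Dox (-) the same medians were 2.91 and 2.79.

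**Figure D2:**
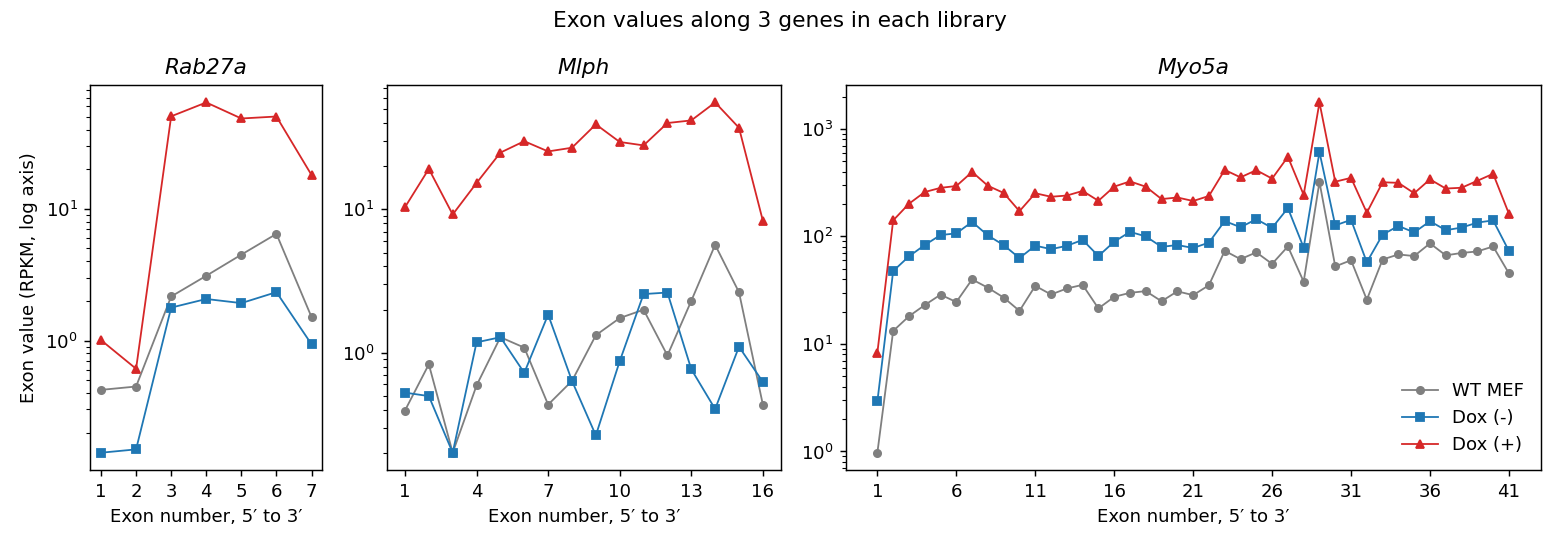
RPKM on a log axis of each exon of a reference transcript of Rab27a, Mlph and Myo5a, in 5′ to 3′ order, in WT MEF (grey), Dox (-) (blue) and Dox (+) (red), 1 library each. Rab27a stays low over its first 2 exons in all libraries and reaches 50.4 RPKM at the next exon in Dox (+), Mlph is higher in Dox (+) on every exon, and the Myo5a curves come closer together from the 23rd exon on, with a peak at the exon of 9 bases.

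An alternative exon of Myo5a of 81 bases, at 75192384 to 75192464, carried 219 reads in WT MEF, 520 reads in Dox (-) and 1250 reads in Dox (+). The exon before it carried 239, 576 and 1435 reads and the exon after it 231, 515 and 1456 reads. Its RPKM was 1.71 times the median of the internal exons in WT MEF, 1.38 times in Dox (-) and 1.24 times in Dox (+), and 1.53, 1.55 and 1.43 times the mean of its flanking exons, so no order of the libraries held under both. Whether a transcript included this exon cannot be read from such values. The same holds for the exon of 9 bases, at 9.13 times the median of the internal exons in WT MEF, 5.92 times in Dox (-) and 6.21 times in Dox (+). The intervals given for Myo5a rest on the reads counted on that exon of 9 bases. On 9 alternative exons of Cd44, of 90 to 126 bases, the reads lay between 345 and 351 in WT MEF and between 2506 and 2702 in Dox (+) whatever the length, so exon reads in this table did not follow exon length there. Another alternative exon of Myo5a, of 75 bases at 75196126 to 75196200, was not among the values used here.

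Rab27b, the relative of Rab27a, did not share its pattern. Its locus is on the minus strand of chromosome 18, positions 69979131 to 70141605. The level of Rab27b was 16.7 RPKM in WT MEF, 16.9 RPKM in Dox (-) and 23.6 RPKM in Dox (+). On its highest exon, with 93 reads in WT MEF, 79 reads in Dox (-) and 129 reads in Dox (+), Dox (+) was 1.67-fold above Dox (-), with an exact binomial 95% interval of 1.25 to 2.24, and 1.42-fold above WT MEF, with an interval of 1.08 to 1.87. Over the 7 positions with more than 3 reads in both, the ratio of Dox (+) to Dox (-) had a median of 1.18 and lay between 1.02 and 1.96. None reached 4-fold. In WT MEF and Dox (-) the level of Rab27b was above that of Rab27a, and in Dox (+) that of Rab27a was above Rab27b, on the RPKM scale, which is per length.

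Sytl2, the anchor at the plasma membrane, separated the knock-in MEFs from WT MEF more than Dox from no Dox. It lies on the plus strand of chromosome 7, positions 90302252 to 90410719, and 8 of its 44 annotated exon positions had values. Its level was 12.5 RPKM in WT MEF, 38.6 RPKM in Dox (-) and 37.9 RPKM in Dox (+). The Dox (+) level was 0.982 times that of Dox (-), with an exact binomial 95% interval of 0.758 to 1.27 on its highest exon. Over the 7 positions with whole reads and more than 3 reads in both, the ratio had a median of 1.245. It lay between 0.905 and 1.54, with 5 positions higher in Dox (+) and 2 lower. Against WT MEF the level was 3.04-fold higher in Dox (+) and 3.10-fold higher in Dox (-), short of the 4-fold rule. Genotype and passage both separate these libraries from WT MEF and cannot be told apart. On the 1 exon highest over the libraries, with 30 reads in WT MEF, 125 reads in Dox (-) and 120 reads in Dox (+), both ratios to WT MEF passed 4-fold, at 4.09 with an interval of 2.72 to 6.33 and at 4.17 with an interval of 2.78 to 6.43.

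Rab32, which brings pigment enzymes to the melanosome, was above 10 RPKM in every library and passed the 4-fold rule in no comparison. The gene is on the minus strand of chromosome 10, positions 10545002 to 10558265. Its level was 46.0 RPKM in WT MEF, 62.7 RPKM in Dox (-) and 46.4 RPKM in Dox (+), from 575, 784 and 567 reads. Dox (+) was 1.01 times WT MEF, with an exact binomial 95% interval of 0.897 to 1.14, and 0.740 times Dox (-), with an interval of 0.663 to 0.825. Dox (-), the library with the macrophage markers, was the highest of the 3. With the libraries rescaled to a common median ratio, the log2 difference between Dox (+) and WT MEF went from 0.01 to -0.25, and with reads over the summed exon length to -0.20. Between Dox (+) and Dox (-) it went from -0.43 to -0.65 with rescaling and to -0.59 with the summed length.

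Rab38, which shares the role of Rab32, was highest in WT MEF. The gene is on the plus strand of chromosome 7, positions 88430273 to 88491572. Its level was 18.4 RPKM in WT MEF, 7.04 RPKM in Dox (-) and 5.34 RPKM in Dox (+). The second exon carried 233 reads in WT MEF, 83 reads in Dox (-) and 66 reads in Dox (+). On this exon WT MEF was 3.45-fold above Dox (+), with an exact binomial 95% interval of 2.62 to 4.61, and 2.81-fold above Dox (-), with an interval of 2.18 to 3.65. Neither passed the 4-fold rule, although the difference from Dox (+) did with the libraries rescaled. Dox (+) and Dox (-), both under 10 RPKM, differed by a ratio of 0.813 on this exon, with an interval of 0.580 to 1.14. The first exon had a ratio of 1.11. The third exon, 965 bases long, stood at 15.1 RPKM in WT MEF, 7.04 RPKM in Dox (-) and 3.65 RPKM in Dox (+). There Dox (+) was 0.519 times Dox (-) and 0.242 times WT MEF, without an interval because whole reads were not recovered. With reads over the summed exon length, Dox (+) was 0.637 times Dox (-).

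Rab17, which acts in melanosome release, was listed at 0 in all 3 libraries on each of its 6 listed exon positions, of 15 annotated. It lies on the minus strand of chromosome 1, positions 90958133 to 90969661, where its end faces that of Mlph across 6991 bases. The neighbouring Mlph and Rab17 thus had levels of 55.8 RPKM and 0 in Dox (+).

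**Figure D3:**
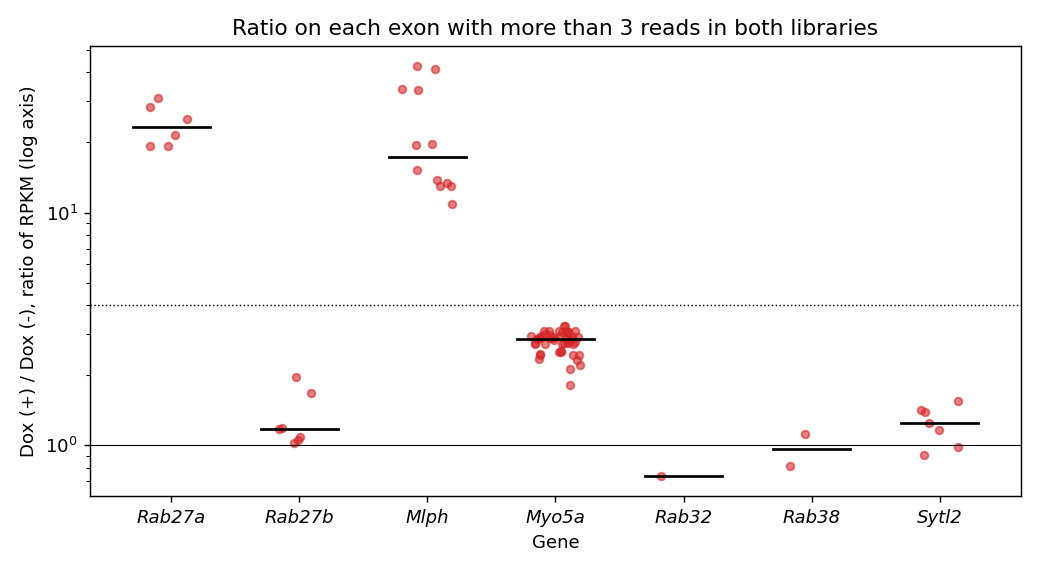
Ratio of Dox (+) to Dox (-) RPKM on a log axis, with the median of each gene as a bar, a line at 1 and a dotted line at 4. Points are exon positions with whole reads recovered and more than 3 reads in both libraries. Exons without whole reads are not drawn, at 0.519 in Rab38, 0.6075 and 0.989 in Rab32 and 0.952 in Sytl2. Every Rab27a and Mlph point lies above 10, the 49 Myo5a points lie between 1.81 and 3.27, and the points of Rab27b, Rab32, Rab38 and Sytl2 lie between 0.740 and 1.96.

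Counted by the 4-fold rule, Rab27a and Mlph were higher in Dox (+) than in Dox (-), 2 of the 6 members tested, and none was lower. Over all 13307 genes tested, 1.64% were higher and 5.41% lower. Against WT MEF, Rab27a, Mlph and Myo5a were higher in Dox (+), 3 of 7 members tested, and none was lower. There 6.55% of 12941 genes were higher and 3.40% lower. Between Dox (-) and WT MEF none of the 5 members tested was called, where 8.26% of 13234 genes were higher in Dox (-) and 1.21% lower. Rab27a and Mlph passed the level of 10 RPKM through Dox (+) alone. Over all 8 members, whatever their level, the median log2 difference between Dox (+) and Dox (-) was 0.23, against 0.01 over all 22835 genes. Between Dox (+) and WT MEF it was 1.00 against 0.12, and between Dox (-) and WT MEF 0.01 against 0.06. The 22835 genes include low ones, whose differences the pseudocount draws toward 0. Over all genes tested by the 4-fold rule, the medians were 0.23, 0.27 and 0.01 in this order. Between Dox (+) and Dox (-), the median of all 8 members, 0.231, was close to that of the genes tested, 0.226, though not all 8 were tested. Over the 6, 7 and 5 members tested by that rule, the medians were 1.00, 1.53 and 0.44, with Rab27a and Mlph among the 6 and the 7 through Dox (+) alone.

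The wider transport machinery was followed with 48 genes in 6 groups, of which 46 had values. Of 37 tested between Dox (+) and Dox (-), Mreg and Myo5c were higher and Madd was lower. Of 37 tested between Dox (+) and WT MEF, Mreg, Myo5c, Myo10 and Rab7b were higher and Madd was lower. Of 35 tested between Dox (-) and WT MEF, Rab7b was higher. The shares over all genes tested were 1.64% higher and 5.41% lower, 6.55% and 3.40%, and 8.26% and 1.21%, in this order. The median log2 difference over the genes tested was 0.20, 0.43 and 0.30 in these comparisons, where over all genes tested it was 0.23, 0.27 and 0.01. Mreg and Myo5c passed the level of 10 RPKM through Dox (+) alone. Rab7b passed it against WT MEF through the knock-in library alone, and Madd passed it through Dox (-) or WT MEF alone. None of the 5 partners of Rab32 and Rab38, among them Hps1 and Hps4 of the complex that activates both, was called in any comparison.

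Madd, an exchange factor that loads Rab27 with GTP, ran opposite to Rab27a in Dox (+). Its level was 76.5 RPKM in WT MEF, 91.4 RPKM in Dox (-) and 7.58 RPKM in Dox (+), set by an exon of 9 bases with 31, 37 and 3 reads. Dox (+) was below Dox (-) on all 58 exon positions with more than 3 reads in either, and on 46 of them by more than 4-fold, as were 10.2% of all exon positions. The median over 48 positions with more than 3 reads in both was 6.47-fold lower, and the other positions passed the read filter through Dox (-) alone. Against WT MEF, 51 of 53 positions were lower in Dox (+), 22 of them by more than 4-fold, as were 5.35% of all exon positions. There 48 of the 53 had more than 3 reads in both, with a median 3.51-fold lower. Over exons of at least 100 bases the level was 14.2 RPKM in WT MEF, 19.9 RPKM in Dox (-) and 4.13 RPKM in Dox (+), which kept the call against Dox (-), at 4.83-fold, and not that against WT MEF, at 3.44-fold. The other genes of the group that activates, inactivates or prenylates Rab27, among them the escort protein Chm and the prenyl transferase subunits Rabggta and Rabggtb, were not called.

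Mreg (melanoregulin), a melanosome protein linked to transport toward the cell centre, stood at 2.69 RPKM in WT MEF, 1.71 RPKM in Dox (-) and 26.2 RPKM in Dox (+). The exon behind these levels carried 11, 7 and 105 reads. Its ratio was 15.3 to Dox (-), with an exact binomial 95% interval of 7.19 to 39.1, and 9.76 to WT MEF, with an interval of 5.24 to 20.2. All 4 of its exon positions with whole reads and more than 3 reads in either library were over 4-fold higher in both comparisons. Of these, 3 had more than 3 reads in both libraries compared, with a median ratio of 11.3 to Dox (-) and 9.76 to WT MEF. The remaining position passed the read filter through Dox (+) alone. Of all exon positions, 3.31% were so against Dox (-) and 14.4% against WT MEF.

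Myo5c, a class V myosin like Myo5a, stood at 2.06 RPKM in WT MEF, 1.42 RPKM in Dox (-) and 16.2 RPKM in Dox (+). It starts 8332 bases after the end of Myo5a, on the same strand. In Dox (+) its first 14 listed exons had a median of 10.0 RPKM and the other 27 a median of 2.07 RPKM, split at a boundary chosen after the values were seen. In WT MEF the same medians were 0.288 and 0.734 RPKM, and in Dox (-) 0.261 and 0.473 RPKM. The higher level in Dox (+) thus lay mostly in the part nearer to Myo5a, and whether reads from Myo5a transcripts contributed was not tested.

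Myo10, a filopodial myosin, stood at 82.5 RPKM in WT MEF, 293.7 RPKM in Dox (-) and 367.7 RPKM in Dox (+). The ratio of Dox (+) to WT MEF was 4.46 by its highest exon, of 28 bases, and 3.64 over exons of at least 100 bases. Rab7b, a late endosomal Rab, stood at 4.90 RPKM in WT MEF, 61.4 RPKM in Dox (-) and 44.8 RPKM in Dox (+). It was 12.5-fold higher in Dox (-) and 9.14-fold higher in Dox (+) than in WT MEF, and was highest in the library with the macrophage markers, whose part in its level was not tested.

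**Figure D4:**
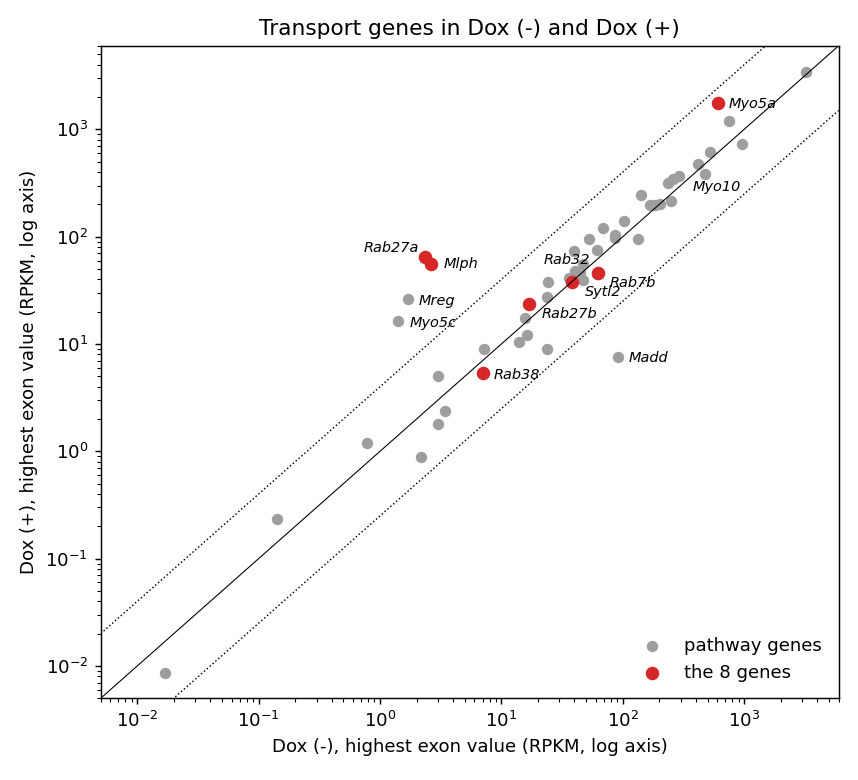
Level in Dox (+) against Dox (-), as RPKM of the highest exon on log axes, for 7 of the 8 genes (red) and for 45 of 48 pathway genes (grey), leaving out genes at 0 or without values, with lines at equal levels and at 4-fold either way. Rab27a, Mlph, Mreg and Myo5c lie above the upper 4-fold line, Madd lies below the lower one, and Myo5a lies between the lines.

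Likeness of pattern was measured as the root mean square difference of centred log2 levels over the 3 libraries, among 13586 genes above 10 RPKM in at least 1. The gene nearest to Rab27a was Mlph, at 0.145 on the log2 scale, followed by Prss41 and Ramp3. The genes nearest to Mlph were Ramp3, at 0.129, Prss41, at 0.140, and Rab27a. With a pseudocount of 5 in place of 1, Ramp3, at 0.052, came before Mlph, at 0.102, for Rab27a, and Adssl1 was the nearest to Mlph. For Myo5a, 15 genes lay within 0.1, the nearest being Tnfsf9, Gm11110 and Pdxk. The 3 nearest were Prrc1, Grina and Nom1 for Rab27b, Calu, Uso1 and Zscan29 for Rab32, Hmgb3, Tbx15 and Taf1d for Rab38, and Fam180a, Garem2 and Kat6a for Sytl2. For Rab27b 797 genes lay within 0.1 and for Rab32 284, so their nearest genes were not set apart from many others. With 3 libraries these are descriptions of rank only.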

How the data were processed

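Poly(A) RNA of 4 samples was sequenced, 1 library per condition. According to the labels and methods, the authors used the TruSeq RNA kit v2, bcl2fastq 2.17.1.14, TopHat2 2.0.10 on mm10 and bedtools to count reads on exons. The authors deposited RPKM values per exon, in which the count of an exon is divided by its length in kb and by library depth. Columns were assigned by name alone. Whether the column named MEF holds the wild-type library as the study reported it is not settled, since its values differ from the MEF values given with the paper, and every WT MEF value rests on that name. The 1 column whose name matched no label was not used, so PMel was not analysed here.

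Exon identifiers were matched to GENCODE M21 (228132 of 234718), and 226463 of them, on coding genes, pseudogenes and lincRNAs, were kept. Reads were recovered with the whole-number depth divisor, between 20 and 80 in units of the RPKM scale, that made most values under 200 reads whole. The level of a gene was its highest exon RPKM. Log2 differences used a pseudocount of 1 RPKM, which understates changes of low genes, and ratios used none. Exact binomial intervals at 95% cover counting error only. Ratios and counts over exon positions used exons with whole reads recovered and more than 3 reads. Because there was 1 library per condition, no test across genes and no leave-one-out was run. The members, gene lists and rules were chosen with earlier results of these data known. The genes named were the 8 members, Mitf, pathway genes above 10 RPKM and past 4-fold in at least 1 comparison, the 3 genes nearest to each member, and markers as lists. Cd44, Hps1, Hps4, Chm, Rabggta, Rabggtb, Dct, Oca2, Mlana, Tyrp1 and Sox10 were named outside this rule, after their values were seen. Of 6 epithelial and 4 endothelial markers, the summed levels were 61.2 and 1.15 RPKM in WT MEF, 9.54 and 12.9 RPKM in Dox (-), and 33.6 and 4.78 RPKM in Dox (+). The steps were tested on simulated data. Alternatives changed the exon choice, thresholds, pseudocount and scaling. Python 3.11.15, pandas 2.3.3, NumPy 2.4.6, SciPy 1.17.1 and matplotlib 3.10.9 were used.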

Additional observations from a re-analysis of the deposited data

How the results depend on the processing

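Between Dox (+) and Dox (-), the 2 members called were Rab27a and Mlph under 9 of the 10 alternatives, and a fold of 2 added Myo5a. Against WT MEF, a fold of 2 gave 5 members in place of 3, adding Sytl2 and, as lower, Rab38. There the same exon in every library added Sytl2, rescaling added Rab38 as lower, and a fold of 8 left out Myo5a. Between Dox (-) and WT MEF, 1 member (Sytl2) was called with the same exon in every library and 2 (Sytl2 and Rab38) at a fold of 2, in place of 0. The pathway counts moved more. Of 3 calls between Dox (+) and Dox (-), 0 were left with reads over the summed exon length and 1 (Madd) at a level of 30 RPKM. Of 5 calls between Dox (+) and WT MEF, 3 were left with exons of at least 100 bases, 1 with reads over the summed length, 3 at a level of 30 RPKM and 3 at a fold of 8, and a fold of 2 gave 9. Rescaling ended the call of Myo10 there and added Spire2 as lower, and a pseudocount of 5 on the ratio ended that of Myo5c there and against Dox (-). Of 1 call between Dox (-) and WT MEF, the same exon in every library gave 2, a level of 1 RPKM gave 2 and a fold of 2 gave 4. With reads over the summed length, Madd stood at 9.35 RPKM in Dox (-) and Mreg at 8.06 RPKM and Myo5c at 3.81 RPKM in Dox (+), under the level of 10 RPKM. Against the mean of its 2 flanking exons, the Myo5a exon of 81 bases was at 1.53 in WT MEF, 1.55 in Dox (-) and 1.43 in Dox (+), so that the order of WT MEF and Dox (-) turned. For the 7 members with a level, 126 log2 differences were recomputed. A change of sign was counted only for called differences, and there were 0. Uncalled ones did change sign. Between Dox (+) and Dox (-), Sytl2 went from -0.03 to 0.31 with exons of at least 100 bases. Between Dox (+) and WT MEF, Rab32 went from 0.01 to -0.25 with rescaling. Between Dox (-) and WT MEF, Rab27b went from 0.02 to -0.22 with the same exon, and Mlph from -0.88 to 0.05 with the summed length. Between Dox (+) and Dox (-), the log2 difference of Rab27a lay between 3.24 and 4.73 and that of Mlph between 2.99 and 5.34, the low ends with a pseudocount of 5. With a pseudocount of 5, 2 of the 3 genes nearest to Rab27a and 2 of those nearest to Mlph were shared with a pseudocount of 1, and 0 for Myo5a, Rab27b and Rab38. The planned comparisons with PMel were not run. No paired analysis was possible because each condition had 1 library. Depth limited Rab27a and Mlph in WT MEF and Dox (-), where many exons had fewer than 20 reads.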
